A study of Mus musculus with 4 samples.

Results

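The chemokine genes Ccl2, Ccl7, Ccl5, Cxcl1 and Cxcl12 and the adhesion gene Vcam1 were followed in primary cultured Gli1+ kidney cells given TGF-β. The 6 genes were taken by name as a list of chemokine and adhesion genes, and all 6 were among the 17391 genes counted. Single cells were captured in droplets with barcoded beads (Drop-seq), and counts are given per bead barcode, which stands for a captured cell. The cells came from male mice aged 12 weeks. All cultures spent 2 h without serum. The 4 libraries, 1 per time point, were a control without TGF-β labelled 0 h and cultures kept for 6, 12 and 24 h with 1 ng/ml TGF-β. No culture without TGF-β was sampled at the later times, so time with TGF-β and time in culture cannot be told apart. With 1 library per time point no difference between times has a replicate check and no test was made. The 95% intervals below cover counting error only, since every value describes the libraries compared.

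Chemokines are small secreted proteins that bind receptors on leukocytes and guide them along a gradient. Ccl2 and Ccl7 attract monocytes through the receptor Ccr2, Ccl5 attracts T cells and monocytes, Cxcl1 attracts neutrophils through Cxcr2, and Cxcl12 holds and guides cells that carry Cxcr4. Vcam1 is a membrane protein that binds the integrin of Itga4 and Itgb1 on leukocytes. In the kidney these genes are known from inflamed and fibrotic tissue, where fibroblasts, pericytes and tubule cells can make them, and several of them are classical targets of the transcription factor NF-κB.

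The families are named for 2 cysteines near the start of the mature protein. The stretches below are 60 coding bases from the first-numbered transcript of each gene in GENCODE M21 (mm10), 5′ to 3′, with the cysteine codons in capitals. They are shown because Ccl2 and Ccl7 move together below, and a read must be able to tell the genes apart. The codons are adjacent in Ccl2, Ccl7 and Ccl5 and have 1 codon between them in Cxcl1 and Cxcl12.
Ccl2: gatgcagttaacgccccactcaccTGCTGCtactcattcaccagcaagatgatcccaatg
Ccl7: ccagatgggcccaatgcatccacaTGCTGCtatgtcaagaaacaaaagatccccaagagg
Ccl5: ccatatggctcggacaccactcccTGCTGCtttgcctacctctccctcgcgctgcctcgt
Cxcl1: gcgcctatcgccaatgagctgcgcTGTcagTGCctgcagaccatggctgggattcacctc
Cxcl12: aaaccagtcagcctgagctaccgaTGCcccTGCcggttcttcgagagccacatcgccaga

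The longest run of identical bases shared by the coding sequences of Ccl2 and Ccl7 was 11. In the last 600 bases of the annotated transcripts, the end that these libraries count, no 51-base word of any of the 6 genes occurred in another gene. Ccl2 (chr11:82035571-82037453, plus strand) and Ccl7 (chr11:82045712-82047525, plus strand) are neighbours with 8258 bases between them. Ccl5 lies on the same chromosome (chr11:83525778-83530518, minus strand), Cxcl1 at chr5:90891241-90893115 and Cxcl12 at chr6:117168535-117181367, both on the plus strand, and Vcam1 at chr3:116109949-116129688 on the minus strand. Ccl2 and Vcam1 each overlap 1 gene on the opposite strand (Gm17268 and Gm43109), which were not analysed here. The sources used here do not give the strand setting of the counts, so reads from those partners cannot be told apart from Ccl2 and Vcam1.

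Upstream sequence from RefSeq (GRCm38.p6) was matched for Cxcl1 and Cxcl12. They are shown because only these 2 of the 6 genes had upstream sequence in the source used. They were counted in 0.893% and in 79.9% of all barcodes at 12 h, and a link between sequence and level was not tested. The 250 bases before the start of Cxcl1 (chr5:90890995-90891244) hold 2 overlapping matches to the NF-κB consensus, in capitals, and the 250 bases before Cxcl12 (chr6:117168285-117168534) hold 0 such matches and 5 matches to the GC box GGGCGG on either strand. Of 32851 promoters of that length, 3.90% hold the NF-κB consensus and 32.7% the GC box. A match is a description of the letters and not a site.
Cxcl1: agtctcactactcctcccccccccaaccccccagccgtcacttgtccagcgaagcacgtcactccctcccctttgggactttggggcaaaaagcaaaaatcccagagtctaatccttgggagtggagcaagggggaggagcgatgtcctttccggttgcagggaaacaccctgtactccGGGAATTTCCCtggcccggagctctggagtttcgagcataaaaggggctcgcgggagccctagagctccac
Cxcl12: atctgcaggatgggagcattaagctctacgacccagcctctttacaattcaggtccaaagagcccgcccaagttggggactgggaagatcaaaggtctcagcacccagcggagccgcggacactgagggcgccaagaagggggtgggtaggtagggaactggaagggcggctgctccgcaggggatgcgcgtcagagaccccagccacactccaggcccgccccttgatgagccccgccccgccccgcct

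The libraries held 192, 658, 1120 and 1328 barcodes at 0, 6, 12 and 24 h, with 106826, 778793, 5687966 and 6166324 counts. The median barcode had 489.5, 313.5, 3815.5 and 3379 counts, and no barcode sequence was shared between libraries. Collagen and other mesenchymal markers (8 of 10 listed were analysed, Gli1 not among them) summed to 46.8 counts per 1000000 (CPM) at 0 h, with Col1a1, Col3a1, Pdgfrb, Dcn and Sparc at 0, and to 6326, 9692 and 10299 CPM at 6, 12 and 24 h. All 10 proximal tubule markers had counts at 0 h, where they summed to 15034 CPM, against 4.40 to 5.35 CPM in the treated libraries. The library labelled 0 h therefore goes against its label. Differences from it are given as differences between libraries only, and the time course is read from 6 h on. Macrophage and monocyte markers (7 of 10 analysed) summed to 112 CPM at 0 h, 16.7 at 6 h, 5.98 at 12 h and 5.51 at 24 h, with Tyrobp and Cd74 at 0 in all 3 treated libraries, and the part these few counts play in the chemokine levels was not tested.

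Ccl2, Ccl7 and Vcam1 were more than 2-fold higher at 12 h than at 6 h, and at 24 h they were 1.30-fold, 1.18-fold and 1.09-fold their 12 h level. Cxcl12 was higher at each later time in steps under 2-fold, and Ccl5 was lower at each. Cxcl1 was barely counted. A floor of 20 CPM in at least 1 of the 2 libraries left 6917 genes for 12 h over 6 h. On the scale of CPM plus 10, 320 of them (4.63%) had a 2-fold or larger difference upward and 210 (3.04%) downward. Of the 6 genes, 5 reached 20 CPM, and of these Ccl2, Ccl7 and Vcam1 were past that fold upward and 0 were past it downward. Between 24 h and 12 h, 0.667% of 6746 genes were past this fold upward and 0.978% downward. Here 0 of the 5 were higher and only Ccl5 was lower. Between 24 h and 6 h, 4.02% of 6760 genes were higher and 3.49% lower, and again Ccl2, Ccl7 and Vcam1 were higher and Ccl5 lower. The median log2 ratio of the 5 genes was 1.15, 0.23 and 1.51 in these comparisons, beside 0.17, -0.11 and 0.05 over all genes compared. The ratios to 6 h share the 6 h library, and the 5 genes were counted there only 19 to 542 times each.

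**Figure D1:**
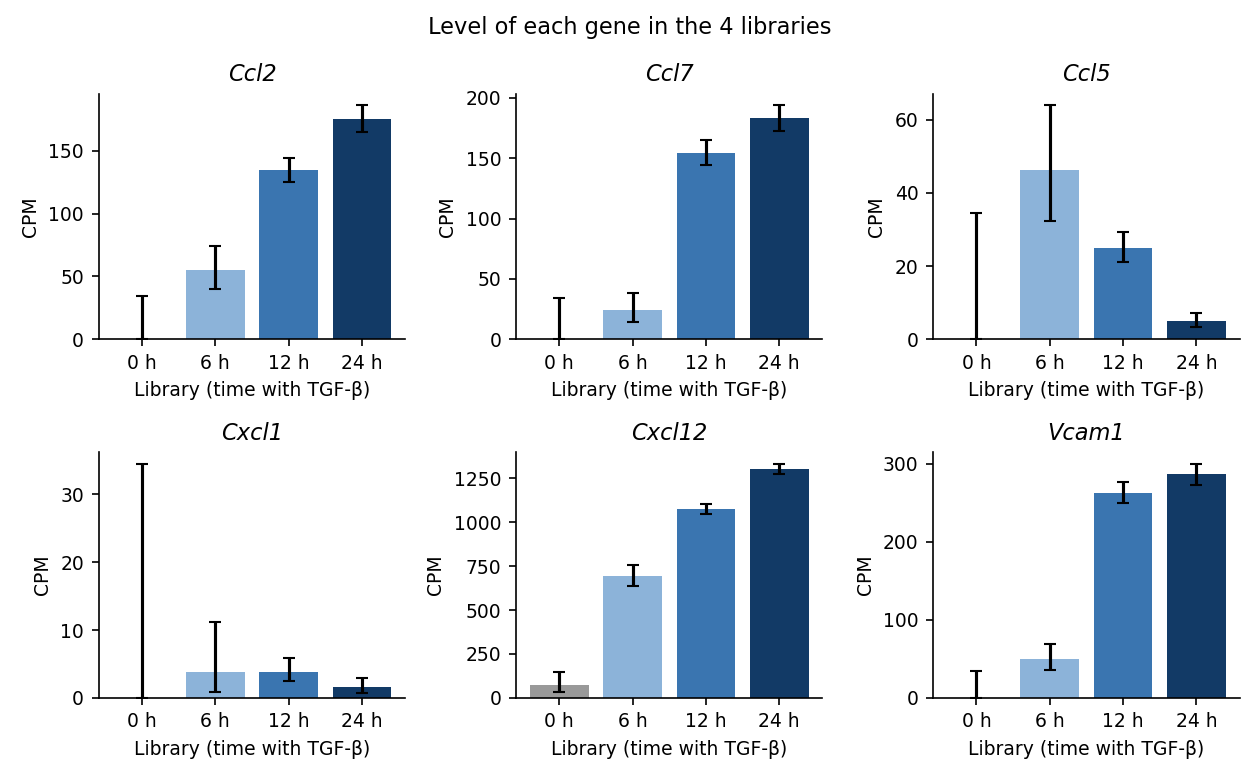
CPM of each gene (vertical axis, from 0, a scale of its own per gene) in the libraries labelled 0, 6, 12 and 24 h; bars are the level of 1 library and lines the exact Poisson 95% interval. Ccl2, Ccl7 and Vcam1 have no count at 0 h and are lowest of the treated libraries at 6 h, Cxcl12 has 696, 1075 and 1305 CPM at 6, 12 and 24 h, and Ccl5 46.2, 25.0 and 5.03 CPM.

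Ccl2, the monocyte chemoattractant, had 0, 43, 766 and 1082 counts at 0, 6, 12 and 24 h, which is 0, 55.2 (40.0 to 74.4), 135 (125 to 145) and 175 (165 to 186) CPM. The 3 treated libraries stand in time order and their intervals do not overlap. The level at 12 h was 2.44-fold (1.79 to 3.40) that at 6 h, and the level at 24 h was 1.30-fold (1.19 to 1.43) that at 12 h. The step from 6 h depended on how barcodes were weighed. With each barcode given the same weight the log2 ratio of 12 h to 6 h was 0.41 rather than 1.15 and that of 24 h to 12 h was 0.82 rather than 0.36, so the larger step then lay between 12 h and 24 h. With DESeq2 size factors the log2 ratio of 12 h to 6 h was 0.99, just short of 2-fold, and with a pseudocount of 50 it was 0.81. At 6 h the 80 barcodes with 1000 or more counts had 45.0 CPM of Ccl2 and the 578 shallower ones 84.4 CPM.

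Ccl7, a second ligand of Ccr2, had 0, 19, 880 and 1128 counts in time order, or 0, 24.4 (14.7 to 38.1), 155 (145 to 165) and 183 (172 to 194) CPM. It was low at 6 h and high at 12 and 24 h, with no overlap of the intervals of the treated libraries. It was 6.34-fold (4.04 to 10.6) higher at 12 h than at 6 h, and 1.18-fold (1.08 to 1.29) higher at 24 h than at 12 h. Ccl7 stayed past 2-fold at 12 h over 6 h under all 11 alternative settings, with log2 ratios of 1.25 to 2.81.

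Ccl5, which attracts T cells, had 0, 36, 142 and 31 counts, or 0, 46.2 (32.4 to 64.0), 25.0 (21.03 to 29.4) and 5.03 (3.42 to 7.14) CPM. Among treated libraries its CPM is highest at 6 h and lowest at 24 h. The intervals do not overlap, but they treat counts as independent and leave out the spread between barcodes. The 12 h level lay 1.85-fold (1.25 to 2.69) under the 6 h level. The 24 h level lay 4.97-fold (3.35 to 7.58) under the 12 h level and 9.19-fold (5.53 to 15.4) under the 6 h level. These levels came from few barcodes. At 6 h 10 barcodes had a count, and 2 of them held 17 and 11 of the 36 counts. At 12 h 41 barcodes had one, and the 3 highest held 31, 12 and 11 of 142 counts. At 24 h 19 barcodes had one, and the highest held 5 of 31. Of all barcodes, 1.52% at 6 h, 3.66% at 12 h and 1.43% at 24 h had a count, at unequal depth. The order of these shares differs from that of the levels. Without the barcode with most Ccl5 in each library, the log2 ratio of 12 h to 6 h was -0.23 in place of -0.69 and that of 24 h to 6 h -1.28 in place of -1.90. With each barcode given the same weight, the log2 ratio of 24 h to 12 h was -0.88 in place of -1.22, short of 2-fold.

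Cxcl1, the neutrophil attractant, had 0, 3, 22 and 10 counts, or 0, 3.85, 3.87 and 1.62 CPM, and reached 20 CPM in 0 of the 4 libraries. Its 24 h level lay 2.39-fold (1.08 to 5.64) under the 12 h level, and 8 of the 22 counts at 12 h came from 1 barcode.

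Cxcl12, the ligand of Cxcr4, had 8, 542, 6112 and 8046 counts, or 74.9 (32.3 to 148), 696 (639 to 757), 1075 (1048 to 1102) and 1305 (1276 to 1334) CPM. Its treated libraries stand in time order without overlap, each step under 2-fold. The level at 12 h was 1.54-fold (1.41 to 1.69) that at 6 h, and the level at 24 h 1.21-fold (1.17 to 1.26) that at 12 h. It was 1.87-fold (1.72 to 2.05) higher at 24 h than at 6 h, and past 2-fold there only with each barcode given the same weight (log2 ratio 1.15).

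Vcam1 had 0, 39, 1491 and 1764 counts, or 0, 50.1 (35.6 to 68.5), 262 (249 to 276) and 286 (273 to 300) CPM. It is low at 6 h and high at 12 and 24 h, and the intervals of the last 2 overlap. The level at 12 h was 5.23-fold (3.81 to 7.39) that at 6 h, and that at 24 h was 1.09-fold (1.02 to 1.17) that at 12 h. With each barcode given the same weight the log2 ratio of 12 h to 6 h was 3.92 rather than 2.18, and that of 24 h to 6 h 3.97 rather than 2.30. All 39 counts at 6 h lay in the 80 barcodes with 1000 or more counts, at 67.5 CPM there, against 0 counts in the 578 shallower barcodes.

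Of the 6 genes only Cxcl12 had counts in the library labelled 0 h. Its 8 counts came from 8 barcodes with 378 to 995 counts each, all of which held tubule marker counts, as did all 192 barcodes, and 1 of which held a mesenchymal marker count. A count of 0 in that library allows up to 28.1 CPM (3 counts), and measured levels were set against that floor, without their own counting error. On that basis Ccl2 was at least 4.80-fold higher at 12 h, with a bound of 6.25-fold at 24 h. For Vcam1 the bounds were 9.33-fold and 10.2-fold, and for Ccl7 5.51-fold and 6.51-fold. No bound is given at 6 h, where the counts are few. The exact Poisson interval of a 0 there reaches 34.5 CPM, which overlaps the 6 h intervals of Ccl5, Ccl7 and Cxcl1. Cxcl12 was 9.29-fold (4.68 to 21.6), 14.3-fold (7.28 to 33.3) and 17.4-fold (8.84 to 40.4) higher at 6, 12 and 24 h than in the library labelled 0 h. Given the tubule markers there, what part TGF-β has in these differences cannot be told apart from the content of that library.

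A sum over a library cannot separate more cells with a transcript from more transcript per cell, so shares of barcodes were also compared, at equal depth. A thinned share still moves with transcript per cell as well as with the number of cells, and does not separate them either. The 80, 865 and 933 barcodes with 1000 or more counts at 6, 12 and 24 h were each thinned to 1000 counts. The shallower 578, 255 and 395 barcodes were left out, as was the 0 h library, in which 13 barcodes were that deep and 0 of them held any of the 6 genes. Ccl2 was counted in 4 of 80 barcodes (5%, 1.38 to 12.3) at 6 h, 8.90% (7.09 to 11) at 12 h and 11.9% (9.89 to 14.2) at 24 h. Ccl7 was counted in 0 of 80 barcodes at 6 h, which allows up to 3.75% with a count at this depth by 3 counts and up to 4.51% by the exact interval, although 8 of these barcodes held it before thinning. It was counted in 11.2% (9.19 to 13.5) and 14.3% (12.1 to 16.7) at 12 and 24 h. Ccl5 was counted in 2 of 80 barcodes, in 2.31% and in 0.429%, and Cxcl1 in 0 of 80, in 2 of 865 and in 0 of 933 barcodes. Vcam1 was counted in 6.25% (2.06 to 14.0), 22.5% (19.8 to 25.5) and 21.01% (18.4 to 23.8). The share with Cxcl12 was 40.0% (29.2 to 51.6), 63.8% (60.5 to 67.0) and 69.8% (66.7 to 72.7). Before thinning the same barcodes gave 15.0%, 29.2% and 30.7% for Ccl2, 10.0%, 34.7% and 34.4% for Ccl7, 28.7%, 56.8% and 57.3% for Vcam1, and 75%, 92.9% and 94.7% for Cxcl12. In the treated libraries tubule markers were at 5.35 CPM or less, so no tubule barcodes could serve there as a comparison. Smooth muscle and pericyte markers, Acta2 among them, summed to 606, 147 and 451 CPM at 6, 12 and 24 h. Podocyte markers summed to 43.7, 111 and 175 CPM. Whether these libraries hold a second cell type was not tested. In the 192 tubule-marked barcodes of the 0 h library, with a median of 489.5 counts, Cxcl12 was counted in 4.17% (1.82 to 8.04) and the other 5 genes in 0.

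**Figure D2:**
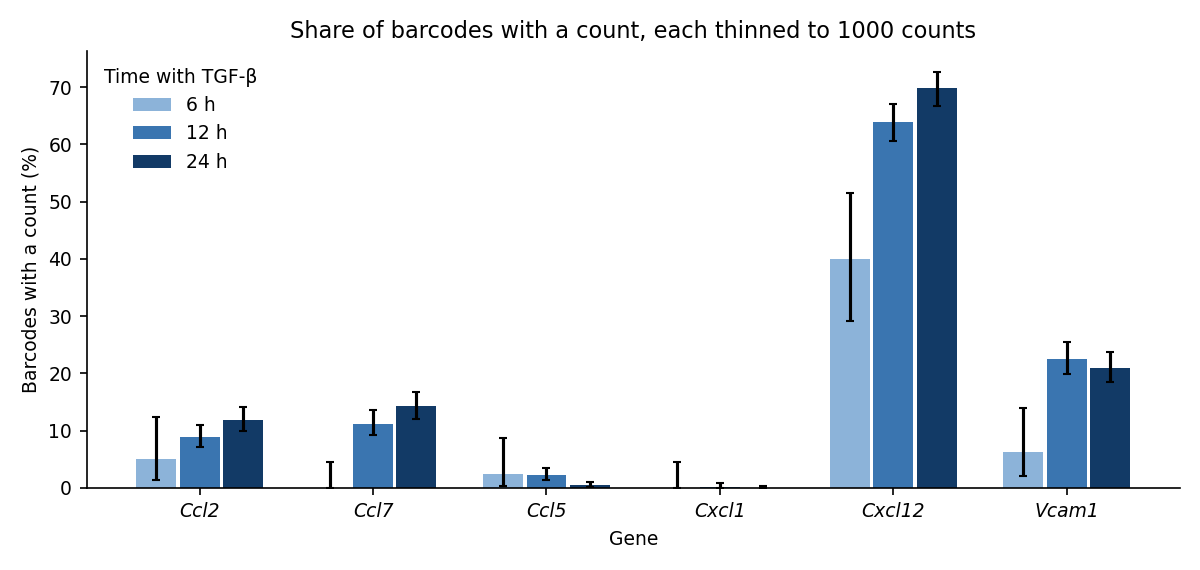
Share of barcodes with a count of each gene (vertical axis, percent) after thinning to 1000 counts, at 6, 12 and 24 h; bars are 1 library each and lines exact binomial 95% intervals over 80, 865 and 933 barcodes. Vcam1 is in 6.25%, 22.5% and 21.01% of barcodes at 6, 12 and 24 h, and Cxcl12 in 40.0%, 63.8% and 69.8%.

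Within a library the genes differed in how evenly their counts were spread. The 10% of deep barcodes with most Ccl2 held 73.3% of its counts at 12 h and 74.0% at 24 h, and for Ccl7 the figures were 63.4% and 67.9%. For Vcam1 the top 10% held 45.5% and 48.6%, and for Cxcl12 33.4% and 29.96%. The counts of Ccl2 and Ccl7 lay in fewer barcodes than those of Cxcl12. These shares come from unthinned counts, and a gene with fewer counts can fill fewer barcodes. In deep barcodes at 12 h Ccl2, Ccl7, Vcam1 and Cxcl12 had 756, 863, 1465 and 5992 counts, the reverse order of the shares. Spread and level can therefore not be told apart here. In single barcodes Ccl2 reached 41 counts at 12 h and 32 at 24 h, and Ccl7 reached 22 and 38. After thinning, 58 of the 77 barcodes with Ccl2 at 12 h held 1 count and 5 held 3 or more, and at 24 h 17 of 111 held 3 or more.

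Ccl7 was counted in a larger share of barcodes with Ccl2 than of those without it, in both of the deeper libraries. At 12 h Ccl7 was present in 24 of the 77 barcodes with Ccl2 (31.2%, 21.1 to 42.7) and in 73 of the 788 without it (9.26%, 7.33 to 11.5). At 24 h it was present in 45 of 111 with Ccl2 (40.5%, 31.3 to 50.3) and in 88 of 822 without it (10.7%, 8.68 to 13.0). Read the other way, Ccl2 was present in 24.7% of barcodes with Ccl7 and 6.90% of those without at 12 h, and in 33.8% with and 8.25% without at 24 h. The intervals did not overlap in either library. At 6 h 4 barcodes held Ccl2 and 0 held Ccl7 after thinning, too few to compare. Leaving out called doublets, or the shallower of barcodes 1 base apart, left the shares of Ccl7 among barcodes with Ccl2 at 31.6% or 31.2% at 12 h and 40.5% or 40.9% at 24 h.

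Vcam1 was counted more often with Ccl2 at 24 h, while at 12 h the intervals overlapped, and the difference between the libraries was not tested. At 24 h it was counted in 34.2% (25.5 to 43.8) of barcodes with Ccl2 and 19.2% (16.6 to 22.1) of those without. At 12 h it was counted in 19.5% (11.3 to 30.1) with Ccl2 and 22.8% (19.95 to 25.9) without. The 12 h direction depended on depth, since thinning to 2000 counts gave 41.9% with and 30.8% without. Barcodes with both Ccl2 and Ccl7 held Vcam1 in 2 of 24 at 12 h (8.33%, 1.03 to 27.0) and in 19 of 45 at 24 h (42.2%, 27.7 to 57.8), beside 21.8% and 18.7% of barcodes with neither chemokine.

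Cxcl12 was counted about as often with Ccl2 as without it. The shares were 61.0% (49.2 to 72.0) with and 64.1% (60.6 to 67.4) without at 12 h, and 67.6% (58.0 to 76.1) with and 70.1% (66.8 to 73.2) without at 24 h. With Vcam1 it was 69.7% with and 62.1% without at 12 h, and 65.3% with and 71.0% without at 24 h, so the direction differed between the libraries and the intervals overlapped in each. Ccl5 shared barcodes with Ccl2 in 1 of its 20 barcodes at 12 h and in 0 of its 4 at 24 h. In all, 23.9% of thinned barcodes at 12 h and 19.2% at 24 h held none of the 6 genes, and 27.6% and 29.2% held 2 or more.

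**Figure D3:**
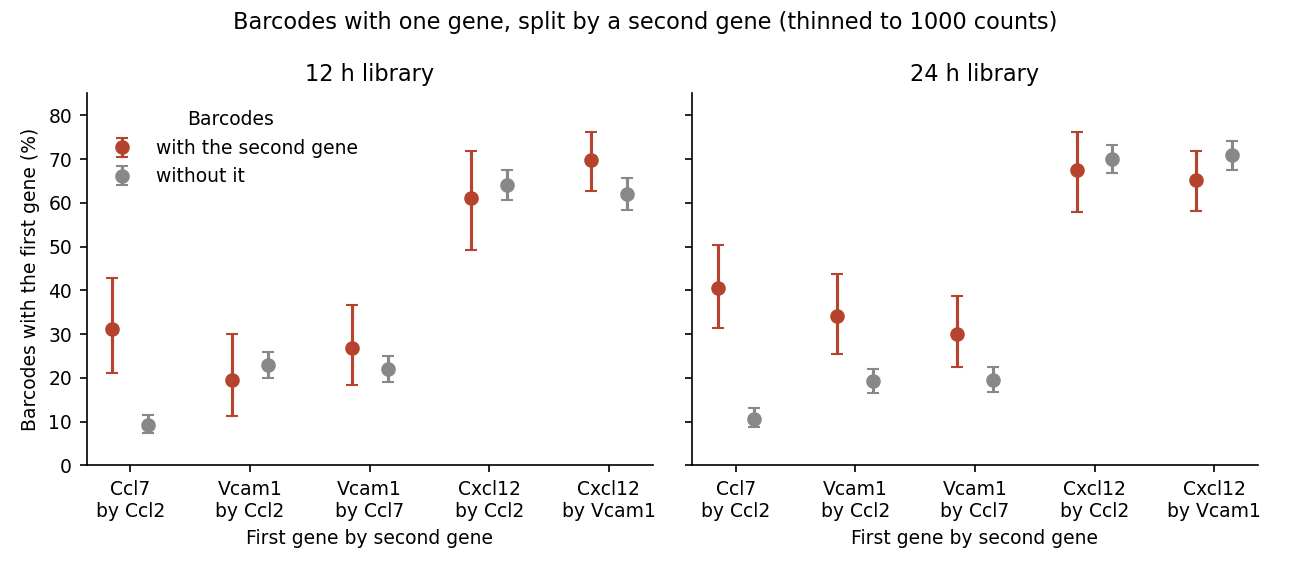
Share of barcodes with a first gene (vertical axis, percent) among barcodes with a second gene (red) and without it (grey), at 12 h (left) and 24 h (right), thinned to 1000 counts; points are the shares and lines exact binomial 95% intervals. Ccl7 by Ccl2 stands apart in both libraries (31.2% against 9.26%, and 40.5% against 10.7%), Vcam1 by Ccl2 does so at 24 h (34.2% against 19.2%) while its intervals overlap at 12 h, and those of Cxcl12 overlap throughout.

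The same pairing was seen across unthinned barcodes. Pearson's r of Ccl2 with Ccl7, on the log scale of counts per 10000, was 0.46 over 865 barcodes at 12 h and 0.58 over 933 at 24 h. Barcodes of 1 library share its preparation and differ in depth, so r is a description and carries no p. Of 6497 genes counted in at least 10% of barcodes in both libraries, Ccl7 had the highest mean r with Ccl2 (0.52) and Ccl2 the highest with Ccl7, also on thinned counts (0.28) and by Spearman correlation (0.44). Next for Ccl2 came Vcam1 (0.25) and Nfkbia (0.24), and for Ccl7 Nfkbia (0.20). Nfkbia encodes the inhibitor that holds NF-κB in the cytoplasm and is itself induced by NF-κB. For Vcam1 the first was Ccl2 (0.25). For Cxcl12 they were Thbs1, a matrix glycoprotein that can activate latent TGF-β (0.25), Anxa3, an annexin (0.22), and Prss23, a serine protease (0.22). On thinned counts these others were below 0.1 (Vcam1 with Ccl2 0.07, Nfkbia with Ccl2 0.07, Nfkbia with Ccl7 0.01, Thbs1 with Cxcl12 0.09, Anxa3 0.04 and Prss23 0.05). Of the 86 barcodes with the highest Ccl2 level at 12 h, 37 were also among the 86 highest for Ccl7, 17 among those for Vcam1 and 5 among those for Cxcl12. At 24 h the counts were 48, 30 and 8 of 93. Each list is the top 10% of the barcodes, so lists of unrelated genes would share about 10%. The shared part was 43.0% at 12 h and 51.6% at 24 h for Ccl7. For Vcam1 it was 19.8% and 32.3%, and for Cxcl12 it lay under 10% in both libraries. The lists use the same unthinned levels as r and are not a separate check of the pairing.

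Mesenchymal marker levels were close in barcodes with and without Ccl2. In thinned counts the mesenchymal list was 0.95-fold (0.88 to 1.02) at 12 h and 1.00-fold (0.94 to 1.06) at 24 h in barcodes with Ccl2 relative to those without. Split by Ccl7 it was 0.95-fold (0.89 to 1.02) at 12 h and 0.87-fold (0.82 to 0.93) at 24 h. By Ccl2, Col1a2, a fibrillar collagen chain, was 1.00-fold and 1.01-fold. Col1a2 was also counted in 260 of the 261 barcodes with Ccl2 at 12 h and in 299 of 315 at 24 h, and in 312 of 313 and 329 of 338 of those with Ccl7. Macrophage marker counts were found in 8 of the 261 and 12 of the 315 barcodes with Ccl2, which held 7.83% and 6.84% of Ccl2 counts. Neither share is particular to Ccl2. At 12 h 33 of 895 barcodes with Cxcl12 and 24 of 514 with Vcam1 had a macrophage marker count, and 95.8% and 98.8% had Col1a2. In thinned counts barcodes with Ccl2 had 0 macrophage marker counts at 12 and 24 h, and those without had 7 and 2. At 6 h, where barcodes were shallow, 11 of the 27 barcodes with Ccl2 had a Col1a2 count and 3 had a macrophage marker count. For Vcam1 7 of 23 barcodes at 6 h had a macrophage marker count and held 33.3% of its counts. For Cxcl12 they were 9 of 149, with 26.2% of its counts. For Ccl7, Ccl5 and Cxcl1 they were 1 of 19, 0 of 10 and 0 of 3. At 6 h 11 of the 13 macrophage marker counts lay in the 80 barcodes with 1000 or more counts, as did all 39 counts of Vcam1. Of the 13 counts 7 were of Itgam. Gene and barcode depth cannot be told apart in these 6 h shares.

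Other genes did differ between barcodes with and without Ccl2. Nfkbia had 338 CPM with Ccl2 and 185 CPM without at 12 h, a 1.82-fold (1.15 to 2.78) difference, and 261 and 155 CPM at 24 h, 1.69-fold (1.09 to 2.55). Acta2, the smooth muscle actin of myofibroblasts, had 189 CPM with Ccl2 and 361 CPM without at 24 h, 0.52-fold (0.32 to 0.82). At 12 h it had 51.9 and 109 CPM, an interval of 0.13 to 1.26. Split by Ccl7, the intervals of Nfkbia and Acta2 held 1 in both libraries, and Col1a2 was 0.78-fold (0.70 to 0.87) at 24 h. Split by Cxcl12, Il6, an inflammatory cytokine, had 63.4 CPM with and 22.4 CPM without at 12 h, 2.84-fold (1.24 to 7.56), and 46.1 and 21.3 CPM at 24 h, 2.17-fold (0.89 to 6.36). The median barcode with Ccl2 had 6525 counts before thinning and that without 5078.5 at 12 h, and 4849 and 5352 at 24 h, and the part of depth in these ratios was not tested beyond thinning.

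**Figure D4:**
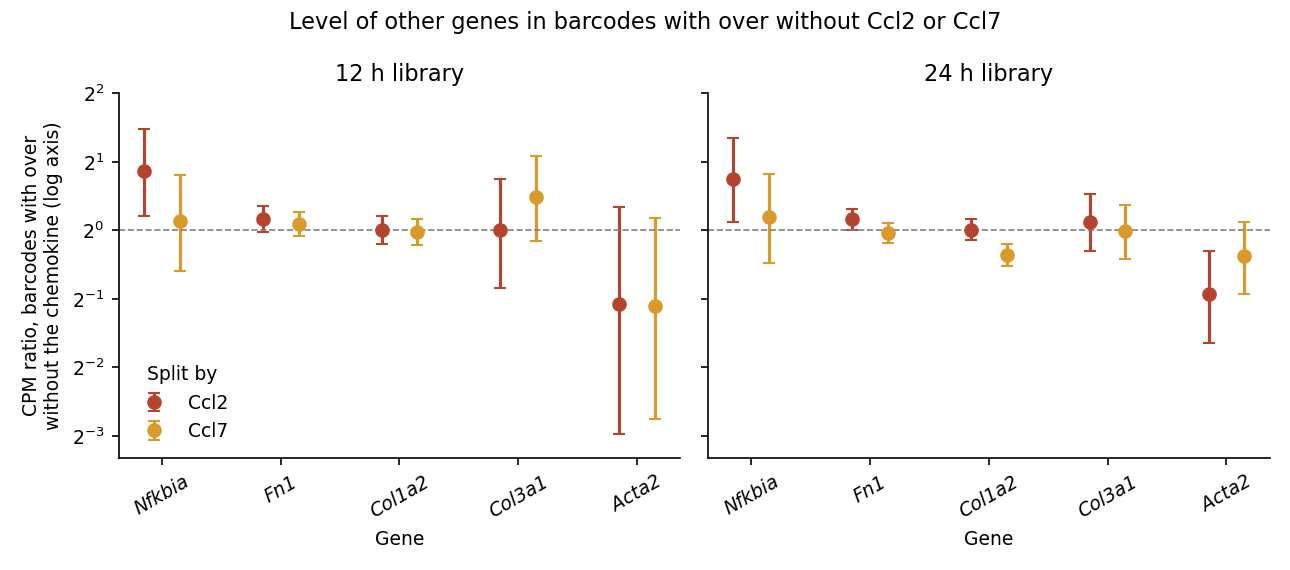
CPM ratio (vertical log axis, base 2) of 5 genes in barcodes with over without Ccl2 (red) or Ccl7 (yellow), at 12 h (left) and 24 h (right), in counts thinned to 1000; lines are exact 95% intervals and the dashed line marks equal levels. Nfkbia lies above the line with Ccl2 in both libraries (1.82 and 1.69), and Acta2 lies below it at 24 h (0.52).

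Of the other chemokine ligands, 13 of 30 listed were analysed and only Cxcl16, a membrane-bound ligand of Cxcr6, reached 20 CPM in a treated library. It had 20.5, 67.7 and 67.5 CPM at 6, 12 and 24 h and was 3.29-fold (2.00 to 5.82) higher at 12 h than at 6 h. Cx3cl1, the membrane-bound fractalkine, had 3.85, 12.1 and 13.1 CPM, and 8 of the 13 stayed under 5 CPM in every treated library. Of the receptors, 8 of 22 were analysed and none reached 20 CPM in a treated library. Cxcr4, the receptor of Cxcl12, had 0 counts in the treated libraries, Ccr2 had 1 count, at 24 h, and the scavenger receptor Ackr3, which also binds Cxcl12, had 8.99, 14.1 and 7.14 CPM.

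Of the adhesion molecules and their partners, 20 of 24 were analysed and 8 reached the floor of 20 CPM in each comparison. On CPM plus 10, 0 were past 2-fold upward in any of the 3 comparisons. Those past it downward were Selp at 12 h over 6 h, Cd44 at 24 h over 12 h, and both at 24 h over 6 h, beside 3.04%, 0.978% and 3.49% of all genes compared. Jam3, a junctional adhesion molecule, had 49.2 CPM at 12 h and 21.8 CPM at 6 h, 2.26-fold (1.38 to 3.93) higher in CPM but short of the limit on CPM plus 10 (log2 ratio 0.90). At 12 h over 6 h 1 gene of the list was past the limit upward with equal weight per barcode, with a pseudocount of 1 or without the shallower of barcodes 1 base apart. With equal weight per barcode 0 genes of the list were past it downward there, so Selp then fell short. Selp, P-selectin, had 135, 59.4 and 28.2 CPM at 6, 12 and 24 h, and its 24 h level lay 4.78-fold (3.71 to 6.12) under the 6 h level. Cd44, the hyaluronan receptor, had 144 CPM at 24 h and 317 CPM at 12 h, 2.20-fold (2.03 to 2.39) lower, and with TMM scaling, DESeq2 size factors or equal weight per barcode it fell short of the 2-fold limit on CPM plus 10. Icam1, the other classical ligand of leukocyte integrins, had 1.28, 1.05 and 1.62 CPM. The Vcam1 partner Itgb1 had 1813, 1692 and 1387 CPM and Itga4 5 counts over the 3 treated libraries.

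All 24 listed NF-κB subunits, regulators and feedback genes were analysed, and 15, 16 and 15 reached the floor at 12 h over 6 h, 24 h over 12 h and 24 h over 6 h. At 12 h over 6 h Rela, the p65 subunit, was higher (40.4 against 14.1 CPM, 2.86-fold, 1.57 to 5.82) and 0 were lower, and with TMM scaling or DESeq2 size factors 0 were higher. At 24 h over 12 h 0 were past the fold, and at 24 h over 6 h Tnfaip3, the feedback inhibitor A20, was higher (34.1 against 5.14 CPM, 6.63-fold, 2.55 to 24.6). Nfkbia had 122, 190 and 153 CPM at 6, 12 and 24 h. The 1 of 15 called upward in each comparison with 6 h stands beside 4.63% and 4.02% of all genes compared, so the calls are close to the background. The median log2 ratios of the list were 0.36, -0.18 and 0.14, beside 0.17, -0.11 and 0.05 over all genes.

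Of the inflammatory cytokines and mediators, 13 of 19 were analysed and 6 reached the floor. At 12 h over 6 h 2 were past the 2-fold limit upward and 0 downward, beside 4.63% and 3.04% of all genes compared. At 24 h over 12 h these were 1 and 0, beside 0.667% and 0.978%. At 24 h over 6 h they were 2 and 1, beside 4.02% and 3.49%. With TMM scaling or DESeq2 size factors 1 of the 5 genes then at the floor was higher at 12 h than at 6 h. In that comparison 1 was lower with DESeq2 size factors, equal weight per barcode or barcodes with 1000 or more counts. The median log2 ratios of the 6 were 0.08, 0.05 and 0.10, beside 0.17, -0.11 and 0.05 over all genes compared. Il6 had 19.3, 55.6 and 56.8 CPM at 6, 12 and 24 h and was 2.88-fold (1.72 to 5.22) higher at 12 h than at 6 h. Spp1, osteopontin, had 2.57, 20.6 and 57.6 CPM and was 2.80-fold (2.26 to 3.48) higher at 24 h than at 12 h, with only 2 counts at 6 h. Csf1, the macrophage growth factor, had 204, 309 and 375 CPM. Ptgs2, the inducible cyclooxygenase, had 566, 309 and 254 CPM with the 24 h level 2.23-fold (2.00 to 2.48) under that at 6 h. Mif, the macrophage migration inhibitory factor, had 659, 392 and 412 CPM, and Hmgb1, a nuclear protein that acts as an alarm signal outside cells, had 636, 476 and 401 CPM, both highest at 6 h.

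**Figure D5:**
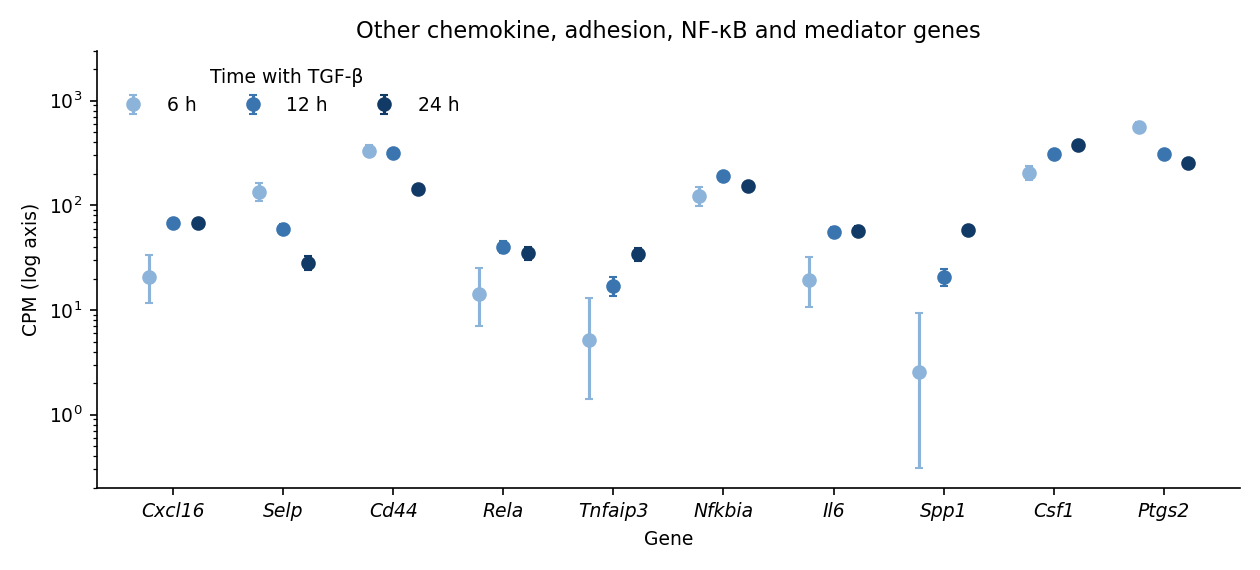
CPM (vertical log axis) of 10 genes from the lists at 6, 12 and 24 h; points are 1 library each and lines exact Poisson 95% intervals. Cxcl16, Il6, Spp1 and Tnfaip3 are lowest at 6 h, and Selp and Ptgs2 are highest at 6 h.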

How the data were processed

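The assay was Drop-seq, with 1 library for each of 4 time points. The authors' deposited table gives raw counts, as whole numbers, of 17391 genes in 3298 barcodes, and the start of a column name tells the library. The submitters' processing notes name STAR 2.5.3a and the build mm10. The sources used here do not say which counter was used, whether it used strand or whether UMIs were collapsed. The table's barcodes each hold at least 200 genes, and 0 were removed.

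Library sums of counts were turned into CPM, with exact Poisson intervals. Ratios of CPM have exact conditional binomial 95% intervals, log2 ratios are of CPM plus 10, which understates differences of low genes, and a count of 0 was set to 3 counts for a bound. A difference past 2-fold needed 20 CPM or more in either library. Shares and co-detection used barcodes with 1000 or more counts thinned to 1000, with exact binomial intervals, and 15 pairs of genes were computed. Likeness was the mean Pearson r over the 12 h and 24 h libraries. Doublet calls (Scrublet in scanpy) fell on 27, 8, 14 and 10 barcodes at 0, 6, 12 and 24 h, which were kept, as were 11, 140 and 150 barcodes 1 base from a deeper one at 6, 12 and 24 h. Positions come from GENCODE M21. The functions were tested on simulated data.

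The genes, lists and rules were chosen with earlier results of these data known, so none is independent of them. Named are the 6 genes, at most 4 genes of each list with the largest absolute log2 ratio in each comparison at 20 CPM or more, and up to 5 genes most like a member with a mean r of 0.2 or more. Companion genes and list genes under 20 CPM (Cx3cl1, Ackr3, Ccr2, Cxcr4, Icam1, Itga4) or outside that rule (Itgb1) were named for their known roles after their values were seen. Some companion values are not reported here. Alternatives were scaling by TMM, scaling by DESeq2 size factors, library totals that leave out mitochondrial and ribosomal protein genes, weighing all barcodes equally, stricter barcode filters, other pseudocounts, floors and folds, other thinning depths and leaving out the barcode with most counts of a gene. Scaling factors came from edgeR 4.0.16 and DESeq2 1.42.0 under R 4.3.3. Everything else ran in Python 3.11.15 with scanpy 1.11.5, scipy 1.17.1, pandas 2.3.3, numpy 2.4.6 and matplotlib 3.10.9.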

Additional observations from a re-analysis of the deposited data

How the results depend on the processing

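No paired analysis was possible because each time point had 1 library, and no replicate could be left out. The log2 ratios of Ccl2, Ccl7 and Vcam1 at 12 h and at 24 h over 6 h, of Ccl5 in all 3 comparisons and of Cxcl12 in all 3 kept their sign under 11 alternatives. The median log2 ratio of all genes at 12 h over 6 h was 0.17, and 0.06 with TMM and 0.01 with DESeq2 size factors; at 24 h over 12 h it was -0.11, and -0.01 and -0.00 with these. Ccl5 counted among the genes lower at 24 h than 12 h in 0 cases with equal weight per barcode, a pseudocount of 50 or a floor of 100 CPM, and at 24 h over 6 h in 0 with that pseudocount or floor. It was 1 gene lower at 12 h than at 6 h at a 1.5-fold limit. Depth limits what can be said of the 6 h library (80 deep barcodes) and of Cxcl1.

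The number of all genes past the fold moved more than that of the 6. At 12 h over 6 h, 189 were higher with DESeq2 size factors; 1099 were higher and 318 lower with equal weight per barcode; 633 were higher with a pseudocount of 1; 50 were higher and 69 lower with 50; 108 and 98 with a floor of 100 CPM; and 1263 and 532 at 1.5-fold. At 24 h over 12 h, 75 were higher and 101 lower with a pseudocount of 1, 21 and 5 with 50, 29 and 15 with a floor of 100 CPM, and 166 and 249 at 1.5-fold. At 24 h over 6 h, 817 were higher with equal weight, 522 with a pseudocount of 1, 72 higher and 69 lower with 50, 108 and 88 with a floor of 100 CPM, and 992 and 648 at 1.5-fold. The causes were not tested; stricter floors compare fewer genes.

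Shares scale with depth, and the gap of Ccl7 by Ccl2 kept its direction at each depth tried. At 12 h it was 17.9% with Ccl2 and 6.73% without at 500 counts, and 60.1% and 24.2% unthinned. At 24 h it was 22.2% and 5.96% at 500, 53.9% and 14.8% at 2000, and 64.3% and 21.2% unthinned.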

Other observations

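Some patterns rest on few counts and were noticed after the values were seen. Both barcodes with Cxcl1 at 12 h, after thinning, also held Ccl2, and r of Cxcl1 with Ccl2 over unthinned barcodes was 0.29 at 12 h and 0.10 at 24 h, from 22 and 10 counts of Cxcl1. Barcodes with 4 of the 6 genes numbered 1 at 12 h and 9 at 24 h after thinning. A single barcode at 24 h held 62 of the 1764 counts of Vcam1, and the next held 25.

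At 6 h the shallow barcodes differed from the deep ones. The 578 barcodes under 1000 counts had 54.6 CPM of Ccl7 (27.3 to 97.7) and 352 CPM of Col1a2, and the 80 deeper ones had 13.9 CPM of Ccl7 (5.98 to 27.3) and 1230 CPM of Col1a2. The mesenchymal list was 5838 CPM in the shallow and 6497 CPM in the deep barcodes. At 24 h Ccl7 was 154 CPM in the shallow barcodes and 184 CPM in the deep ones.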
